A study of Mus musculus with 8 samples.

Results

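The levels of 10 genes of the p53 pathway were followed through 8 mouse libraries, namely Trp53, which encodes p53, and 9 of its targets in growth arrest and feedback, Cdkn1a, Mdm2, Ccng1, Phlda3, Sesn1, Zmat3, Eda2r, Plk2 and Btg2. They were taken by symbol, and all 10 were found among the 24888 genes of the count table. Every library derived from the E14 embryonic stem cell line. Embryonic stem cells (ESC) were grown with LIF and the inhibitors CHIR99021 and PD0325901, and expanded potential stem cells (EPSC) were made from them over 5 passages in a serum-replacement medium that added the inhibitors JNK Inhibitor VIII, SB203580, A-419259 and XAV939. ESC and EPSC were each sequenced untreated and after 3 days with T0901317 (T09), an agonist of the liver X receptors. Its dose is labelled 1 uM/mL, from which a molar concentration cannot be read. Blastoids, which are aggregates that model the blastocyst, were grown from EPSC in medium with FGF4, heparin and CHIR99021, to which BMP4 and A83-01 were added after the first day. EPSC were transfected with an siRNA labelled siNr1h2 or with the control labelled siNT, and these day 2 blastoids were harvested 48 hours later. Nr1h2 encodes the liver X receptor beta. The day 5 blastoids were picked manually, and 2 classes were sequenced, Type I and Type III. Both are labelled as derived from T09-treated EPSC, with no dose or duration given. Each group held 1 library.

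p53 is a transcription factor whose activity is set mainly through the stability and modification of its protein, so its mRNA is only 1 of several layers of control. In unstressed cells the ubiquitin ligase MDM2, itself encoded by a p53 target, keeps the protein low. Its targets include brakes on the cell cycle, feedback inhibitors, death receptors and enzymes that limit oxidative damage. Embryonic stem cells are known for abundant p53, for a short G1 phase and for little p21 protein, and p53 is known to favour their differentiation.

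Levels are given as CPM, the counts of a gene relative to the TMM-scaled library total, and intervals in brackets after a ratio are 95% exact Clopper-Pearson intervals that cover counting error only. Totals ran from 24666260 to 40781415 counts, and the 10 genes rested on 520 to 22263 counts per library, so counting error was small and the spread between cultures unknown. With 1 library a group, a difference between 2 libraries carries no p-value. The count table holds symbols without coordinates, levels of different genes were not compared because no transcript lengths were used, and in bulk RNA fewer cells of a type and less RNA per cell cannot be told apart. Nr1h2 in the siNr1h2 library stood at 70.0% of the siNT level (64.9 to 75.6%). The T09 target Abca1, a cholesterol exporter, was at 340 CPM against 51.0 in ESC and 211 against 18.3 in EPSC. In the day 5 blastoids it was at 207 CPM in Type I and at 5.38 in Type III, although both labels name T09-treated EPSC as the source. Pluripotency markers (10 genes) summed to 5619 to 8773 CPM in ESC and EPSC, 2924 to 3017 on day 2, 764 in Type I and 1740 in Type III, with none at 0. Primitive endoderm markers (10 genes) summed to 68.7 to 260 CPM in ESC and EPSC and 2713 to 5901 in blastoids, and 11 trophectoderm markers to 128 to 203, then 280 to 290 on day 2 and 1437 to 1598 on day 5. On day 5 most of that sum came from the keratins Krt8 (717 and 754 CPM) and Krt18 (553 and 648). Eomes, Gata3 and Tfap2c were lower than in siNT in both types. Tead4 (43.4 and 32.0 against 18.1 CPM) and Krt7 (6.16 and 12.8 against 0.965) were higher in both. Cdx2 was higher than in siNT in Type I alone (48.2 and 30.9 against 31.5), and Gata2 and Hand1 in Type III alone. The trophectoderm factor Elf5 stood at 0 to 0.395 CPM throughout, and Foxa2 of the primitive endoderm list was at 0 in both ESC libraries. Fibroblast markers (9 genes) summed to 8.47 to 27.2 CPM, with 0 to 4 of them at 0 in a library.

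Trp53 mRNA was high in both stem cell states and lowest in day 5 blastoids. It was counted at 358 CPM in ESC, 322 in T09-treated ESC, 378 in EPSC, 465 in T09-treated EPSC, 312 in siNT, 294 in siNr1h2, 113 in Type I and 104 in Type III. The 4 stem cell libraries lay above the day 2 blastoids, and both day 5 blastoids lay far below all others. Each neighbour in this order was separated by more than counting error, and the step from siNr1h2 to Type I was the widest, at 1.38 on the log2 scale (1.33 to 1.44).

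Cdkn1a, which encodes the cyclin-dependent kinase inhibitor p21, divided the stem cell states and did not follow Trp53. Its level was 185 CPM in ESC, 205 in T09-treated ESC, 49.3 in EPSC, 43.9 in T09-treated EPSC, 119 in siNT, 109 in siNr1h2, 201 in Type I and 152 in Type III. Both EPSC libraries lay below all others, the day 2 blastoids in between, and Type I differed from T09-treated ESC by no more than counting error (0.03, -0.02 to 0.07). Over the 8 libraries Cdkn1a spanned 4.68-fold from lowest to highest, Trp53 4.48-fold, Btg2 4.70-fold and Plk2 4.32-fold, whereas Zmat3 spanned 1.70-fold and Mdm2 1.88-fold.

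**Figure D1:**
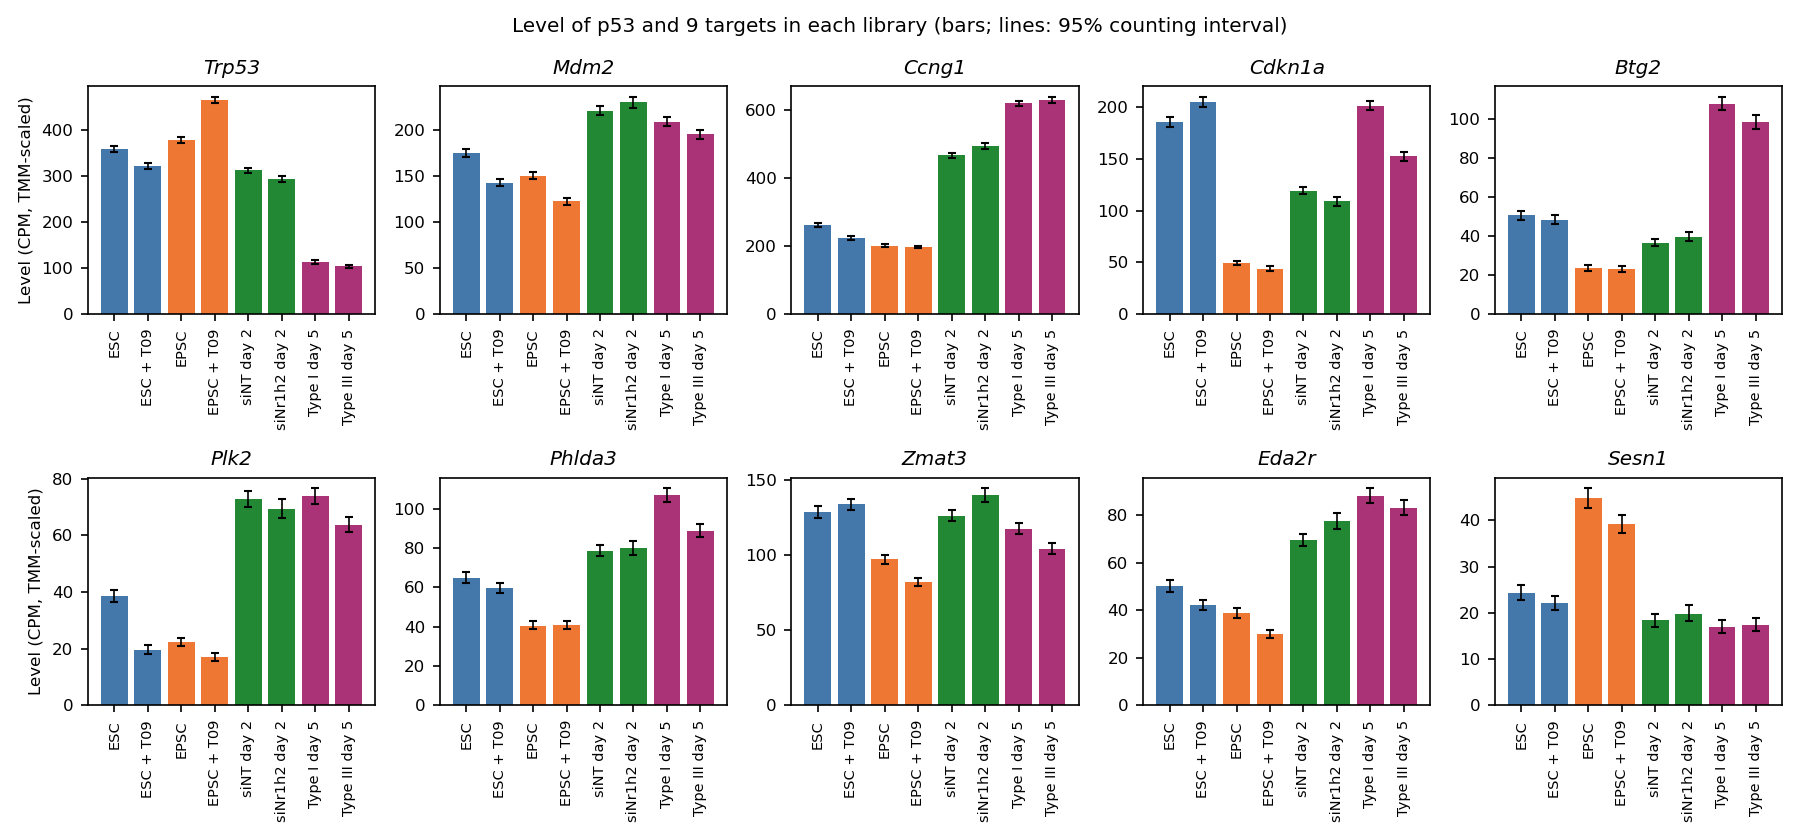
Levels of p53 and its 9 targets in each library, in TMM-scaled CPM on linear axes that start at 0, with 1 bar per library (blue ESC, orange EPSC, green day 2 and purple day 5 blastoids) and 95% counting intervals. Trp53 is lowest in the day 5 blastoids, at 113 and 104 CPM, and Cdkn1a in the EPSC libraries, at 49.3 and 43.9 CPM.

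The feedback genes are those by which p53 limits itself. Mdm2 was at 174 CPM in ESC, 142 in T09-treated ESC, 150 in EPSC, 122 in T09-treated EPSC, 220 in siNT, 230 in siNr1h2, 209 in Type I and 195 in Type III. Ccng1, which encodes cyclin G1, a partner of protein phosphatase 2A that acts on MDM2, was at 262, 223, 201, 197, 467, 496, 620 and 631 CPM in that order of libraries. In both genes all 4 blastoid libraries lay above all 4 stem cell libraries. Type I and Type III did not differ beyond counting error for Ccng1 (-0.02, -0.05 to 0.00).

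Among the arrest genes, Btg2, an antiproliferative cofactor of mRNA deadenylation, was at 50.6 CPM in ESC, 48.3 in T09-treated ESC, 23.6 in EPSC, 23.0 in T09-treated EPSC, 36.6 in siNT, 39.6 in siNr1h2, 108 in Type I and 98.5 in Type III. It was lowest in EPSC, as Cdkn1a was, and highest on day 5. Plk2, a polo-like kinase of centriole duplication and the stress response, was at 38.4, 19.6, 22.3, 17.1, 72.7, 69.4, 73.7 and 63.7 CPM in the same order. Untreated ESC stood apart from the other 3 stem cell libraries for Plk2, and all blastoids lay above it.

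Phlda3, an inhibitor of AKT at the membrane, ran from 40.6 CPM in EPSC to 107 in Type I. Eda2r, the receptor for ectodysplasin A2, ran from 30.2 CPM in T09-treated EPSC to 88.1 in Type I, and Zmat3, an RNA-binding regulator of splicing, from 82.2 in T09-treated EPSC to 140 in siNr1h2. For Phlda3 and Eda2r the blastoids lay above every stem cell library. For Zmat3 the groups overlapped, because ESC (129 CPM) and T09-treated ESC (134) lay among the blastoids.

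Sesn1, which encodes the leucine sensor and antioxidant regulator sestrin 1, went the other way. It was at 24.4 CPM in ESC, 22.1 in T09-treated ESC, 44.8 in EPSC, 39.1 in T09-treated EPSC, 18.4 in siNT, 19.8 in siNr1h2, 17.0 in Type I and 17.4 in Type III. The EPSC libraries were highest, and the 4 blastoids did not differ from their neighbours in the order beyond counting error.

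The sequences beside the start sites of the genes are shown because p53 binds DNA as a pair of 10-base elements, and because several of these genes differed in the same libraries. RefSeq promoter windows (build GRCm38.p6, 250 bases before to 50 after a start) matched 9 of the 10 symbols, in 11 windows, with Cdkn1a and Sesn1 having 2 each. No window was found for Zmat3. Each window was searched for the full p53 response element, a run of 20 bases made of 2 adjoining decamers of the p53 consensus with both C and G core pairs kept, on both strands, since the consensus is its own reverse complement. Up to 3 mismatches were allowed at the other positions, including those between the C and the G of a decamer. Windows of 4 genes held such a match upstream of the start, which is set in capitals within its surroundings below, 5′ to 3′ in the sense of the gene.
Cdkn1a: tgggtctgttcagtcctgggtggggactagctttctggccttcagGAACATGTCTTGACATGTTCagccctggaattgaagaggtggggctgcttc
Ccng1: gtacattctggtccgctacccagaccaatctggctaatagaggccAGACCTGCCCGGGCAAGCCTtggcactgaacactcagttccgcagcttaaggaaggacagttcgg
Trp53: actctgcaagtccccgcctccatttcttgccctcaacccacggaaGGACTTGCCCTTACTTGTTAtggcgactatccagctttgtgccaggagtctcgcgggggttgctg
Sesn1: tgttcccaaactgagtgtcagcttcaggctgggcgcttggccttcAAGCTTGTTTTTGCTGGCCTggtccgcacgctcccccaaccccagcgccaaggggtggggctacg
The Cdkn1a element had 1 mismatch and lay at -51 to -32 from the upstream of 2 annotated starts (chr17:29090928-29090947, plus strand). The Ccng1 element, also with 1 mismatch, lay at -195 to -176 (chr11:40755462-40755481, minus strand). Those of Trp53 (chr11:69580284-69580303, plus strand, -75 to -56) and of the downstream Sesn1 start (chr10:41887266-41887285, plus strand, -173 to -154) had 3 mismatches each, all in the second decamer. The Ccng1 mismatch and 1 of the Sesn1 mismatches lay between the C and the G of a decamer. Of 21819 windows of genes in the count table, 0.055% held a match with up to 1 mismatch and 1.41% one with up to 3. These are shares of windows, with a match anywhere in the window. The counts for the p53 targets are of genes, some with more than 1 window. Among other p53 targets with a window, such a match was found for 2 of 8 arrest genes (Ckap2 and Gtse1), 2 of 12 apoptosis genes (Aen and Bbc3) and 1 of 16 repair and metabolism genes (Tigar). A match describes letters only and shows no binding, and Mdm2, Btg2, Plk2, Phlda3 and Eda2r had none in these windows.

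EPSC and ESC were compared over both treatments to ask how the p53 targets differ between the states. Of the 10 genes, 6 fell and 1 rose in EPSC, against 28.8% of all 14477 genes tested (14.5% lower and 14.3% higher). Cdkn1a fell by 2.08 on the log2 scale (SE 0.118) and Btg2 by 1.10 (SE 0.132). Phlda3 (-0.62), Zmat3 (-0.57), Plk2 (-0.51) and Eda2r (-0.44) fell too, and Sesn1 rose by 0.84 (SE 0.133). The adjusted p in edgeR's quasi-likelihood test with Benjamini-Hochberg adjustment over all genes was 4.11e-06 for Cdkn1a, 0.000297 for Btg2, 0.00144 for Sesn1, 0.00498 for Phlda3 and Zmat3, 0.0306 for Eda2r and 0.0431 for Plk2. Each of the 7 had the same sign in the untreated and the T09-treated pair. Trp53 itself had a log2 change of 0.29 (SE 0.126), Mdm2 of -0.23 (SE 0.100) and Ccng1 of -0.29 (SE 0.105), and their adjusted p in the same edgeR test was 0.114, 0.117 and 0.0667. The median over the 10 genes was -0.47, beside 0.00 over all genes tested.

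The untreated and treated pairs gave Cdkn1a ratios of -1.91 (-1.99 to -1.84) and -2.22 (-2.30 to -2.15), and Btg2 ratios of -1.10 (-1.22 to -0.98) and -1.07 (-1.19 to -0.96). These were the 2 members at least 2-fold apart in each pair, and both were lower. Of all genes 17.6% were 2-fold apart in the untreated pair (9.58% higher, 8.05% lower) and 18.1% in the treated pair (8.35% higher, 9.79% lower). Plk2 and Eda2r no longer passed in a fit of state alone on all 4 libraries. Each fit that left out 1 library was also of state alone. The left-out library and the dropped treatment term therefore cannot be told apart. In these fits the Plk2 change was -0.01 without untreated ESC, -0.77 without untreated EPSC and -0.39 without T09-treated EPSC. With both terms and all 4 libraries it was -0.51. The Plk2 ratio was -0.78 in the untreated pair and -0.20 (-0.36 to -0.05) in the treated pair. Eda2r was at -0.31 without untreated ESC and -0.26 without T09-treated EPSC, and Trp53 at 0.44 without untreated EPSC. The fit of state and treatment has 1 residual degree of freedom, each state is 1 culture line, and its media differ in serum and several inhibitors at once.

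**Figure D2:**
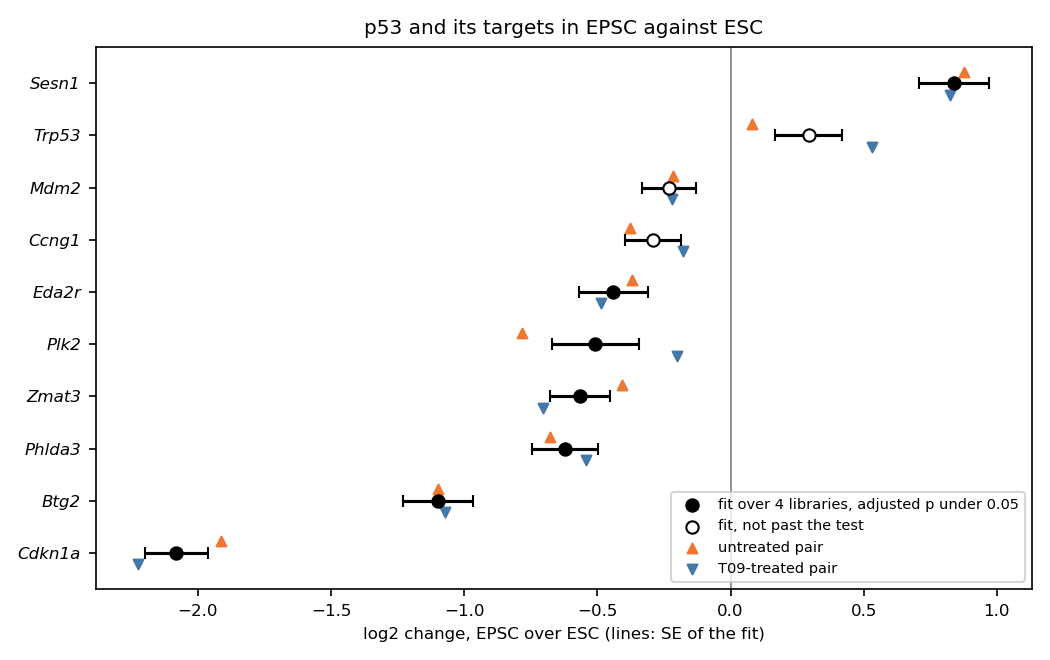
Log2 change of the 10 genes in EPSC over ESC. Circles give the edgeR fit over 4 libraries with its SE (filled, adjusted p under 0.05; open, not past the test), upward triangles the untreated pair and downward triangles the T09-treated pair. Cdkn1a lies furthest left, at -2.08, and Sesn1 furthest right, at 0.84, and the triangles of Plk2 lie at -0.78 and -0.20.

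Other genes of the pathway moved both ways between the states. The counts of each list are to be read beside the 28.8% of all genes called by this fit. Of 44 tested targets outside the 10 genes, 8 rose and 8 fell, with a median of -0.09 beside 0.00 over all genes. The 8 lower became 4 without T09-treated EPSC, 5 without T09-treated ESC and 5 with DESeq2. In the repair and metabolism group 5 of 20 fell and 1 rose. Tigar, a fructose bisphosphatase that spares glucose for antioxidant defence, fell by 1.38 (SE 0.102), Ak1, an adenylate kinase, by 0.99, Dcxr, a xylulose reductase, by 0.68, and Gls2, a mitochondrial glutaminase, by 0.67. In the apoptosis group 5 of 14 rose and 0 fell. Trp53i11 rose by 1.83, the initiator caspase gene Casp8 by 1.66, the BH3-only gene Bcl2l11 by 0.97 and the death receptor gene Tnfrsf10b by 0.63. Of 10 other arrest targets 2 rose and 3 fell, with the polo-like kinase gene Plk3 at 2.00 (SE 0.134), the DNA damage gene Gadd45a at 1.22, the phosphatase gene Ptprv at -1.32 and Ier3 at -1.15. Ier3 differed mainly in the treated pair, at -1.95, against -0.27 in the untreated one.

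Of 20 regulators of p53, 1 rose and 4 fell in EPSC, a share close to the 28.8% of all genes. Cdkn2a, whose ARF product restrains MDM2, fell by 1.26 (SE 0.171), the kinase genes Hipk2 and Chek2 by 0.83 and 0.62, and the deacetylase gene Sirt1 rose by 0.63. Mdm4, the MDM2 partner, was the fourth that fell (-0.45) and is named to complete that count. None of the 6 genes on the separate list of CDK inhibitors passed, although 1 had an unadjusted p under 0.05 in edgeR. The share of all genes under that unadjusted threshold was not counted for state. Cdkn2a, listed among the regulators, also encodes a CDK inhibitor, and counts per gene do not separate its products. Of 15 tested paralogs of the 10 genes, Phlda1 rose by 1.03 and Sesn3 (-0.89) and Tnfrsf19 (-0.85), a receptor related to Eda2r, fell. Of 20 proliferation genes 1 rose and 4 fell, and their summed level was 6891 to 7146 CPM over the 4 libraries. Cell type markers differed between the states as well. Of 10 pluripotency markers 1 rose and 6 fell, and of 9 tested primitive endoderm markers 6 rose and 0 fell. Of 8 tested trophectoderm markers 2 rose and 6 fell. The part of these markers' cell types in the p53 target changes was not tested. Immediate-early genes, which growth signals switch on within minutes and among which Btg2 and Plk2 can respond, had no common order. Egr1 was at 0.362 CPM in ESC, 89.9 in T09-treated ESC, 72.2 in EPSC and 3.04 in T09-treated EPSC. In the same libraries Atf3 was at 2.62, 2.37, 1.31 and 1.21 CPM, lower in both EPSC libraries as Btg2 was. Ier2 was at 118, 169, 214 and 217 CPM. The part of immediate-early signals in the Btg2 and Plk2 changes was not tested. Ier2 and Zfp36 were the 2 of 13 that passed, at 0.60 and 0.77.

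The agonist T09 left all 10 genes short of the test. Over both states edgeR's quasi-likelihood test called 0 of the 10 and 0.104% of all genes (0.0898% higher, 0.0138% lower), and DESeq2 and limma-voom also called 0. An unadjusted p under 0.05 was found for 3 of them, Plk2 (-0.68, SE 0.164), Mdm2 (-0.30, SE 0.100) and Eda2r (-0.31, SE 0.129), with edgeR adjusted p of 0.389, 0.684 and 0.798. Of all 14477 genes in the same edgeR test, 879 had an unadjusted p under 0.05. Plk2 was at 19.6 against 38.4 CPM in ESC, a log2 ratio of -0.97 (-1.10 to -0.83), and at 17.1 against 22.3 in EPSC, -0.39 (-0.53 to -0.24). The Mdm2 ratio was -0.29 (-0.35 to -0.24) in ESC and -0.30 (-0.35 to -0.24) in EPSC. None of the 10 was 2-fold apart in either state, where 3.91% of all genes were in ESC (1.39% higher, 2.53% lower) and 4.19% in EPSC (0.895% higher, 3.29% lower). The median over the 10 was -0.15 in ESC and -0.18 in EPSC, beside 0.01 and 0.00 over all genes. Of the other targets 0 of 44 passed in the edgeR fit, with 1 at an unadjusted p under 0.05, and 0 passed by DESeq2 or limma-voom. In ESC alone Ccng2, the cyclin G2 gene, was at 20.8 against 6.81 CPM (1.60, 1.39 to 1.83) and Ier3 at 10.2 against 4.34 (1.22, 0.95 to 1.52). Of the immediate-early genes, 3 of 12 were called higher in ESC and 4 of 13 lower in EPSC. Egr1 was at 7.74 and Fos at 5.23 in ESC, and in EPSC Egr1 was at -4.55 and Egr2 at 0 counts against 50. Others, such as Junb (0.31 and 0.14) and Nr4a1 (0.39 and 0.23), had the same sign in both states and were not called.

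The knockdown of Nr1h2 in day 2 blastoids left the 10 genes close to their control. Their log2 ratios ran from -0.13 (Cdkn1a, -0.20 to -0.06) to 0.15 (Eda2r, 0.07 to 0.24), with a median of 0.07 beside -0.01 over all genes. None reached 2-fold, where 3.66% of all genes did (1.49% higher, 2.17% lower), and at 1.5-fold the count was still 0. Of the other 45 targets 0 were called. The immediate-early genes Fos (2.10 against 0.711 CPM, 1.48, 0.88 to 2.27) and Egr2 (2 against 23 counts, -2.23, -6.07 to -0.92) were called on few counts. Since the knockdown library still held 70.0% of the siNT level of Nr1h2, these values describe a partial loss of its mRNA.

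Control day 2 blastoids were set against EPSC, from which blastoids are grown. The libraries differ in aggregation, siRNA transfection, medium and time together, and these cannot be told apart. Of the 10 genes 3 were at least 2-fold higher and 1 lower, where 25.8% of all genes were called (14.5% higher, 11.3% lower). Plk2 was at 1.70 (1.59 to 1.82), Cdkn1a at 1.27 (1.20 to 1.35) and Ccng1 at 1.21 (1.17 to 1.25), and Sesn1 at -1.28 (-1.41 to -1.16). Phlda3 (0.96), Eda2r (0.84), Btg2 (0.63), Mdm2 (0.55) and Zmat3 (0.38) lay above 0 without reaching 2-fold, and Trp53 at -0.28 (-0.31 to -0.24). At 1.5-fold the count was 7, but the share of all genes at that threshold was not counted, and the 25.8% belongs to 2-fold. The median over the 10 was 0.74, beside -0.04 over all genes.

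Of 44 other targets 9 were higher and 5 lower on day 2, with a median of 0.24 beside -0.04 over all genes. Of all genes 25.8% were called (14.5% higher, 11.3% lower). Dram1, a lysosomal autophagy gene, was at 631 counts against 12 (5.46, 4.86 to 6.63), Tap1, the peptide transporter gene, at 2.00 and Dcxr at 1.43. Trp53i11 was at 10.8 against 73.7 CPM (-2.77), Plk3 at -1.73 and Ier3 at -1.70, so that Plk3 and Plk2 went opposite ways. Of the CDK inhibitors, the imprinted gene Cdkn1c was at 15.5 against 1.39 CPM (3.43, 3.07 to 3.91) and Cdkn1b, which encodes p27, at 28.4 against 68.8 (-1.28). Among the paralogs Phlda2, an imprinted placental gene, was at 4.24 and Tnfrsf19 at 3.23. No regulator of p53 was called among 20. Of 14 immediate-early genes 2 were higher, Fosl1 (3.26) and Myc (2.03), and 7 lower, with Fos at -5.24 and Egr1 at -3.38. Primitive endoderm markers summed to 2857 CPM in siNT and 260 in EPSC, and all 10 were called higher. Their part in the p53 target ratios was not tested.

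Day 5 blastoids were compared with T09-treated EPSC, the source their labels give. Among all libraries T09-treated EPSC was highest for Trp53 and lowest for Cdkn1a, Mdm2, Ccng1, Zmat3, Eda2r, Plk2 and Btg2. For Ccng1 and Btg2 it differed from untreated EPSC by no more than counting error. The day 2 ratios above start from untreated EPSC, so day 2 and day 5 ratios have different baselines. Of the 10 genes 6 were at least 2-fold higher and 2 lower in Type I, where 40.8% of all genes were called (22.7% higher, 18.1% lower). The same counts were found in Type III, where 37.7% were called (21.7% higher, 16% lower). Both comparisons share the T09-treated EPSC library, so they are not separate evidence. In Type I, Btg2 was at 2.23 (2.13 to 2.34), Cdkn1a at 2.20 (2.12 to 2.27), Plk2 at 2.11 (1.99 to 2.23), Ccng1 at 1.65 (1.62 to 1.69), Eda2r at 1.54 (1.45 to 1.64) and Phlda3 at 1.39 (1.31 to 1.48). In Type III the same 6 genes lay between 1.12 (Phlda3) and 2.10 (Btg2). Mdm2 was at 0.77 and 0.67 and Zmat3 at 0.52 and 0.35.

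Trp53 and Sesn1 were the 2 lower genes. Trp53 was at -2.05 in Type I and -2.16 (-2.22 to -2.11) in Type III, 0.242 and 0.223 of its level in T09-treated EPSC, and Sesn1 at -1.20 (-1.34 to -1.07) and -1.16 (-1.31 to -1.03). The 2 libraries with the least Trp53 mRNA held the highest levels of Ccng1, Phlda3, Eda2r and Btg2, and the lowest of Sesn1. Mdm2 and Zmat3 were highest in siNr1h2 and Cdkn1a in T09-treated ESC. Plk2 was highest in Type I, but in Type III it lay below both day 2 blastoids. The median over the 10 was 1.47 in Type I and 1.29 in Type III, beside -0.03 and 0.00 over all genes. An assumed biological variation of 0.2 per library, added to the counting error, left the calls at 8 in both comparisons. At these counts it widened an interval by less than the 2-fold threshold and could not remove a call. It therefore says nothing about the spread between cultures.

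**Figure D3:**
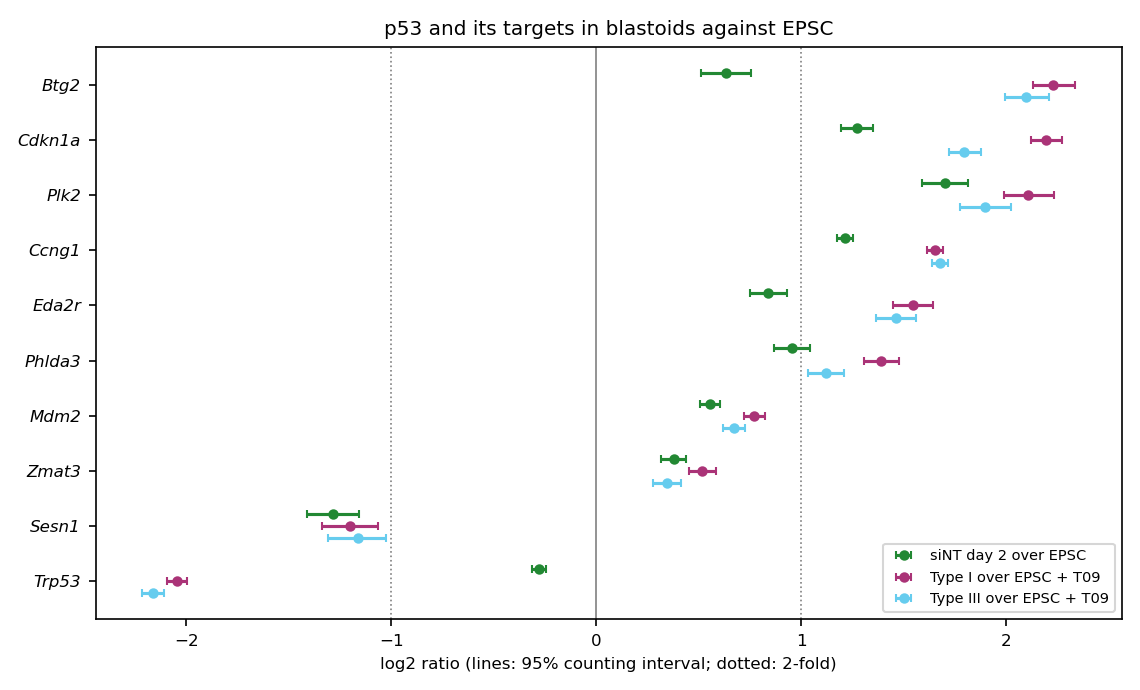
Log2 ratios of the 10 genes in control day 2 blastoids over EPSC (green) and in Type I (purple) and Type III (light blue) blastoids over T09-treated EPSC, with 95% counting intervals and dotted lines at 2-fold. On the plot 8 genes lie to the right of 0 in all 3 comparisons, and Sesn1 and Trp53 to the left, Trp53 at -0.28 on day 2 and at -2.05 and -2.16 on day 5.

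The wider target lists went both ways on day 5. Of 44 other targets in Type I, 13 were higher and 7 lower, with a median of 0.10 beside -0.03 over all genes. Of 45 in Type III, 14 were higher and 8 lower, with a median of 0.34 beside 0.00. Of all genes 40.8% were called in Type I (22.7% higher, 18.1% lower) and 37.7% in Type III (21.7% higher, 16% lower). Dram1 was at 72.7 CPM in Type I and 69.8 in Type III against 0.198, or 8 counts (8.18 and 8.11). Ddit4, an inhibitor of mTORC1, was at 2.28 and 2.69 and Tap1 at 2.95 and 2.69, whereas Trp53i11 was at -2.78 and -2.74 and Plk3 at -2.54 and -2.55. Ccng2 was at 1.81 and 1.88, and Ier3 at 1.43 and 2.17. Tigar, lower in EPSC than in ESC, was lower again, at -1.81 and -1.44.

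Of 20 regulators of p53, 1 was called higher and 2 lower in Type I, and 1 and 1 in Type III, where 40.8% and 37.7% of all genes were called. Cdkn2a was at 44.2 CPM in Type I and 36.6 in Type III against 9.12 in T09-treated EPSC (2.27 and 2.00), and Sirt1 at 40.6 and 47.9 against 198 (-2.28 and -2.04). Of the p53 family, Trp63 was at 2.34 against 0.148 CPM in Type I, where it rested on 84 and 6 counts (3.58, 2.80 to 5.47), and Trp73 at 1.81 against 4.47 (-1.28). Cdkn1c was at 2.94 and 3.69 and Cdkn2b at 2.36 and 1.91, so that Cdkn1a was not the only CDK inhibitor gene above its level in EPSC. Of 15 paralogs of the 10 genes, 6 were higher and 1 lower in each type. Among the sestrin genes, Sesn3 was at 94.7 and 53.1 CPM against 5.41 (4.12 and 3.28), Sesn2, which the naming rule did not pick, at 163 and 118 against 83.5 (0.96 and 0.49), and Sesn1 was lower. Tnfrsf19 was at 2.93 and 2.94. Of 13 immediate-early genes, 7 were higher and 2 lower in each type. Fosb was at 4.08 and 5.70, Jun at 3.74 in Type I and Atf3 at 4.17 in Type III, and the 2 lower genes, named to complete the count, were Ier2 (-1.45 and -1.48) and Nr4a1 (-1.45 and -1.31). Proliferation genes summed to 3962 and 4205 CPM on day 5 against 6938 in T09-treated EPSC, and 18 of 20 lay below 0 in each type. Primitive endoderm, trophectoderm and pluripotency markers differed by the sums given above, and their part in these ratios, like that of medium and time, was not tested.

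Type I and Type III, the 2 classes of day 5 blastoid, lay within 1.5-fold of each other for each of the 10 genes. Cdkn1a had the widest ratio, at 201 against 152 CPM (0.40, 0.35 to 0.45), followed by Phlda3 (0.27, 0.20 to 0.34) and Plk2 (0.21, 0.13 to 0.29). None of the 10 was called at 2-fold or at 1.5-fold, where 7.68% of all genes were 2-fold apart (1.93% higher, 5.75% lower in Type I). Of the 10, 8 lay above 0, with a median of 0.12 beside 0.01 over all genes, and Trp53 was at 0.12 (0.05 to 0.18). Among other targets Sfn, the 14-3-3 sigma gene of epithelia, was at 10.8 CPM in Type I against 36.0 in Type III (-1.72, -1.90 to -1.56), and the death receptor gene Fas at 8 against 34 counts (-1.96, -3.54 to -1.08). Trp63 was higher in Type I (2.40, 1.71 to 3.53), and Fosb (-1.63) and Egr3 (-1.53) lower. Of the cell type markers, 8 of 10 pluripotency genes were called lower in Type I, and all 10 primitive endoderm genes lay above 0, with a median of 0.40 and none called. Their part in the ratios of the p53 genes was not tested.

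The genes most like Trp53 over the 8 libraries were looked up by the smallest root-mean-square difference of log2 levels, each centred on its own mean, among 10230 genes with at least 50 counts in every library. They were Epb41l4a, Exosc5, Bop1, Rrp1b and Rcc2, at 0.12 to 0.14. Exosc5 encodes a subunit of the RNA exosome, Bop1 and Rrp1b nucleolar proteins and Rcc2 a mitotic regulator of chromosome condensation. Bop1 was at 154 CPM in ESC, 170 in T09-treated EPSC, and 49.1 and 49.0 in Type I and Type III, a drop of like size to that of Trp53. For Cdkn1a they were Bag3, an HSP70 co-chaperone gene, at 0.15, and Robo1, Ap1s2, Hif3a and Ptpn6 at 0.23 to 0.26. Bag3 was at 61.5 CPM in ESC, 19.2 in EPSC, 47.9 in siNT and 69.2 in Type I. For Mdm2 they were Pdxdc1, Mlxip, Rassf8, Zfp275 and Fam118a at 0.09 to 0.12, and for Btg2 they were Ddr1, Fut8, Ticam1, Marc2 and Snx25 at 0.12 to 0.17. None of the 10 p53 genes was among these neighbours. Within the 10, Phlda3 and Eda2r were closest to each other (0.16), then Ccng1 and Eda2r (0.20), and Trp53 and Btg2 were furthest apart (1.504). Cdkn1a and Btg2 stood 0.49 apart, and Trp53 was nearest to Sesn1 (0.55).

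**Figure D4:**
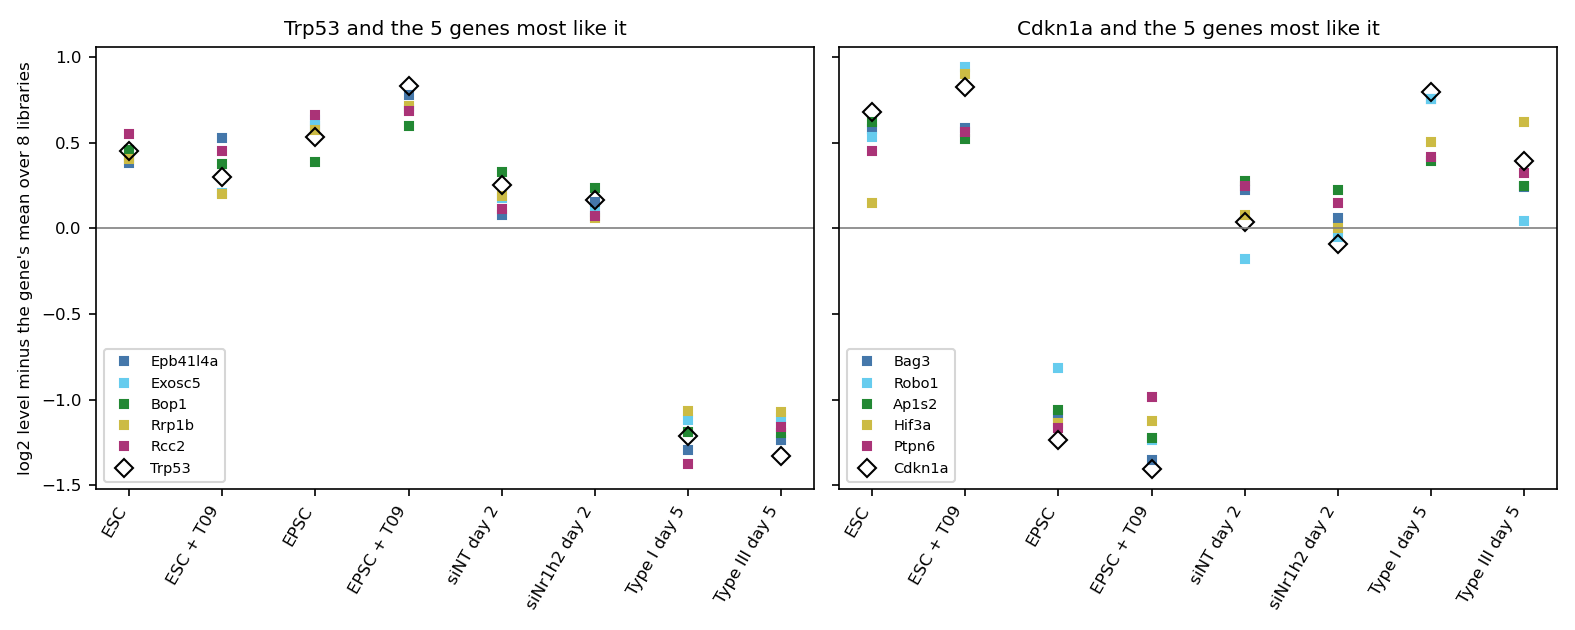
Log2 level minus the gene's own mean over 8 libraries, for Trp53 (left, open diamonds) and Cdkn1a (right, open diamonds) with the 5 genes most like each (squares), 1 point per library. The squares lie close to the Trp53 diamonds in every library, with root-mean-square differences of 0.12 to 0.14, and more loosely around Cdkn1a, with 0.15 to 0.26.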

How the data were processed

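RNA sequencing was done on total RNA from 8 libraries, treated with DNase and made with a directional kit, per the labels' protocols. The deposited table holds raw counts per gene symbol, as whole numbers, with no column outside the 8 samples. The submitters' processing notes name STAR, HTSeq, Cuffnorm and mm9, whose versions, roles, annotation and strand setting are not given in the sources used here. In GENCODE M21, of a later build, 1 of the 10 genes, Cdkn1a, shares exon bases with an unconfirmed opposite-strand transcript, and if the strand was not used its reads would be counted together.

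Counts were scaled by TMM. For each of 9 pairs of libraries a log2 ratio was formed over all genes with a prior count of 2, and a gene was called when it differed at least 2-fold, the 95% exact interval excluded 1 and a library had at least 20 counts. ESC and EPSC with and without T09 were modelled in edgeR by state and by treatment with its quasi-likelihood test (filterByExpr, Benjamini-Hochberg threshold 0.05), whose SE is the log2 change over the root of F. In simulated data for the state comparison on 14477 genes, recovery was 91% at 2-fold and 100% at 4-fold changes, with 5 false calls. The simulation held no treatment effect and took its noise from the dispersion estimated in these same libraries. It therefore does not measure the spread between cultures. The 2-library rule on EPSC over ESC, run on 24888 genes, recovered 100% of genes changed 4-fold with 26 false calls from counting noise. Alternatives were RLE factors, library totals, no minimum count, 1.5-fold, an added variation of 0.2, a prior count of 0.5, no filter, DESeq2, limma-voom, single-term models and leaving out each library. From the other lists, up to 4 genes past the state test and up to 2 called in each other comparison, by size of change, are named. The members and lists were chosen with earlier results of these data known. Software was R 4.3.3, edgeR 4.0.16, limma 3.58.1, DESeq2 1.42.0 and Python 3.11.15.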

Additional observations from a re-analysis of the deposited data

Results flagged for a closer look

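The T09 ratios of 2 genes, Trp53 and Cdkn1a, had opposite signs in the states with both counting intervals clear of 0. Trp53 was at -0.15 in ESC (-0.19 to -0.12) and 0.30 in EPSC (0.27 to 0.33), so that EPSC exceeded ESC by 0.45 (0.40 to 0.50). Cdkn1a was at 0.15 in ESC (0.10 to 0.19) and -0.17 in EPSC (-0.26 to -0.07), a difference of -0.31 (-0.42 to -0.21). Zmat3 (0.05 in ESC, -0.24 in EPSC) and Phlda3 (-0.13 and 0.01) also had opposite signs, with 1 interval of each including 0, and Plk2, lower in both, had the widest difference, 0.58 (0.38 to 0.78). These intervals cover counting error, and with 1 library a group the difference was not tested against the spread between cultures.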

How the results depend on the processing

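At 1.5-fold in place of 2-fold, 5 of the 10 genes were called in EPSC over ESC, 4 in T09-treated EPSC over T09-treated ESC, 1 in T09-treated over untreated ESC (Plk2) and 7 in siNT over EPSC. No share of all genes was counted at 1.5-fold, so these counts cannot be read against the shares given at 2-fold. The other counts of called genes stayed within 1.5 times under the other pair settings, and library totals gave 5 in siNT over EPSC. At these counts, neither the added variation of 0.2 nor dropping the minimum count could change a 2-fold call. The state fit gave 6 genes of 10 with DESeq2 (Plk2 lost), and 5 with state alone on all libraries (Plk2 and Eda2r lost). The fits that left out 1 library also had no treatment term, so they differ from the main fit in both respects. The T09 change of Cdkn1a, -0.01 in edgeR, was 0.0066 with limma-voom and 0.084 with treatment alone. Of 270 single ratios under other scalings or a smaller prior, 260 stayed inside their counting interval and 10 moved beyond it, none with a change of sign among called genes. With T09, genes past the test numbered 15 overall and 46 without a filter or 37 with DESeq2, and none of the 10 was among them. For other targets between the states, DESeq2 called 5 lower, not 8, and the counts lower were 4 without T09-treated EPSC and 5 without T09-treated ESC. No paired analysis was possible because each group had 1 library and the labels give no replicate numbers. With 520 or more counts for each of the 10 genes, counting error is small, and the limit is the lack of repeat cultures.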
